A study of Mus musculus with 6 samples.

Results

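The integrated stress response and the unfolded protein response were followed through 40 mouse genes, chosen by name for their place in the ATF4 pathway, in serine and amino acid supply, or in the handling of endoplasmic reticulum (ER) stress. All 40 were found by Entrez gene identifier among the 27179 identifiers of the count files. Of these, 39 were abundant enough to be tested, and Nupr1, a stress-induced chromatin factor, was not, with at most 1 read in any library. The 39 genes were tested together with all other expressed genes, 12430 in all.

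RNA-seq was carried out on A20, a B cell lymphoma line from BALB/c mice, in 3 groups of 2 independently repeated samples. The first group was wild-type A20, which received no vector. The other groups both carried TETact-v3, a gene activation system in which dCas9 bears an array of GCN4 peptides that recruits the catalytic domain of TET1, while the sgRNA holds MS2 aptamers that recruit the activator p65-hsf1. They differed in the sgRNA, which was a non-targeting control in the control sgRNA cells and was directed at the Cd4 promoter in the Cd4 sgRNA cells. Both TETact groups therefore shared repeated lentiviral transduction, enrichment of the transduced cells by cell sorting, the expressed transgenes and their fluorescent markers, and the time of collection, a week after the sgRNA was introduced. None of these can be told apart in a comparison with wild-type cells, and no group carried an empty vector.

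The libraries held between 23194920 and 121623410 counts, with the control sgRNA libraries the deepest. Cd4 itself had 30959 and 40422 counts in the Cd4 sgRNA libraries and at most 127 in any other, so this check did not go against a label. All 10 B cell markers examined were above 3 counts in every library. Of 8 T cell markers, Cd3d, Cd3e, Cd3g, Cd8a and Trac were at or under 3 counts in every library. The others, Lck, Cd5 and Cd28, were low but present, reaching 80, 61 and 28 counts in a control sgRNA library. Mitochondrial genes took 2.65% and 2.69% of the counts of wild-type cells, 6.63% and 11.5% in control sgRNA cells and 5.96% and 6.9% in Cd4 sgRNA cells. Control sgRNA replicate 2 stood apart, and the control sgRNA replicates differed far more than sampling noise, with a chi-square of 221 per degree of freedom against 7.84 for wild-type and 6.76 for Cd4 sgRNA cells. Such a chi-square on raw counts also grows with depth, and the control sgRNA libraries were the deepest. The part of depth in this contrast was not tested. Nor was the part of the mitochondrial share or of control sgRNA replicate 2 in the differences from wild type. Values without this library are given for Atf3, Ddit3, Trib3 and 6 chaperones.

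In the integrated stress response, a set of kinases phosphorylates the translation factor eIF2 when amino acids, haem or protein folding fail or when viral RNA is sensed. Most protein synthesis then falls, while the mRNA of the transcription factor ATF4 is translated more, and ATF4 raises genes for amino acid uptake, serine and asparagine synthesis and its own feedback. The unfolded protein response runs through the ER sensors PERK, IRE1 and ATF6, and through the spliced form of XBP1 it raises chaperones and degradation factors. It is best known in this lineage for the secretory growth of plasma cells. The deposited values count mRNA per gene, so they show neither phosphorylation nor splicing nor translation of ATF4.

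Promoters were searched for the elements known from each branch, and the stretches that hold them are shown before the values. Windows from 250 bases before to 50 bases after the RefSeq start (GRCm38.p6) were at hand for 36 of the 40 genes. The letters TGATGNAA, which form a core of C/EBP-ATF elements bound by ATF4 with C/EBP partners, were searched on both strands. They occurred in the window of 7 of the 36 genes (Asns, Atf3, Chac1, Herpud1, Nupr1, Slc7a11 and Trib3), where 4.51% of all 27025 genes with a window had a match. The ER stress element, CCAAT and CCACG with 9 bases between them, occurred in 5 of the 36 (Calr, Dnajc3, Hsp90b1, Hspa5 and Pdia6) and in 0.137% of all genes. All 5 were among the 9 chaperones and folding enzymes. The letters TGACGTGG, a core bound by XBP1 and ATF6, occurred in none of the 36 windows and in 0.714% of all genes. Each sequence is printed 5′ to 3′ along the gene, all of it before the start, and capitals mark the fixed letters of a match on either strand. The genes were chosen for their place in these pathways, so a share of matches above that of all genes is no independent result. A match describes the letters only and shows no binding in A20 cells.

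The first stretches hold C/EBP-ATF elements, and they are shown because these genes moved in different directions in the TETact cells, as described below.
Chac1, chr2:119351032-119351091, plus strand: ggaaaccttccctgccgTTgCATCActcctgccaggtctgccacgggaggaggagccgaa
Herpud1, chr8:94386299-94386358, plus strand: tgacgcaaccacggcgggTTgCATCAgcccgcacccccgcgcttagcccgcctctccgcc
Asns, chr6:7693210-7693269, minus strand: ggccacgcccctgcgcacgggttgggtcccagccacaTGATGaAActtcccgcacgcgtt
Atf3, chr1:191183404-191183463, minus strand: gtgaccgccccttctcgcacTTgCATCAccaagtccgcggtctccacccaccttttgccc
Slc7a11, chr3:50443634-50443693, minus strand: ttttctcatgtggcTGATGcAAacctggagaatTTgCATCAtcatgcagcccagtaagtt
The others hold the ER stress element and belong to chaperone genes, of which Dnajc3 and Pdia6 passed the test in Cd4 sgRNA cells and the others did not.
Hspa5, chr2:34772010-34772069, plus strand: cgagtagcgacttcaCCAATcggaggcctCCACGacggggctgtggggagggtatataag
Hsp90b1, chr10:86705610-86705669, minus strand: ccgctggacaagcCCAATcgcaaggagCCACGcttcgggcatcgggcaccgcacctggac
Calr, chr8:84847052-84847111, minus strand: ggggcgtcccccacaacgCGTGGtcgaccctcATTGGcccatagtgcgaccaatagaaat
Dnajc3, chr14:118937812-118937871, plus strand: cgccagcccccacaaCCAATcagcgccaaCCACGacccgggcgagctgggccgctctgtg
Pdia6, chr12:17266469-17266528, plus strand: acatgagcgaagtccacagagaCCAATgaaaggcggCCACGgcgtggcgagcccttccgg
Slc7a11 holds a pair of C/EBP-ATF matches in this stretch, on opposite strands. In Calr the ER stress element lies on the strand opposite to the gene.

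In wild-type A20 cells the chaperone and folding genes Hspa5, Calr, Hsp90b1 and Pdia6 were the most abundant of these genes per length. The other genes of that role lay lower, down to Dnajb9 at 13.4 ± 0.17 RPKM. The level of Hspa5, which encodes the main ER chaperone BiP, was 817 ± 22 RPKM (RPKM scales reads to exon length and library size; SD, n = 2). Calr, for the calcium-binding chaperone calreticulin, was next at 752 ± 21 RPKM, and Hsp90b1, for the ER HSP90 protein GRP94, followed at 467 ± 14 RPKM. The serine pathway genes Psat1 (314 ± 1.2 RPKM) and Shmt2 (306 ± 1.6 RPKM) and the asparagine synthetase gene Asns (277 ± 9.2 RPKM) came close behind Pdia6. The regulators lay below Asns and were spread widely, with Xbp1 at 181 ± 0.064 RPKM, Atf4 at 71.4 ± 2.3 RPKM and Ddit3 at 10.5 ± 0.5 RPKM. Ddit3, Trib3, Ppp1r15a and Cebpb differed in level by less than the spread of the Cebpb replicates. Slc7a11, Atf3 and Aldh1l2 were all below 1 RPKM.

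**Figure D1:**
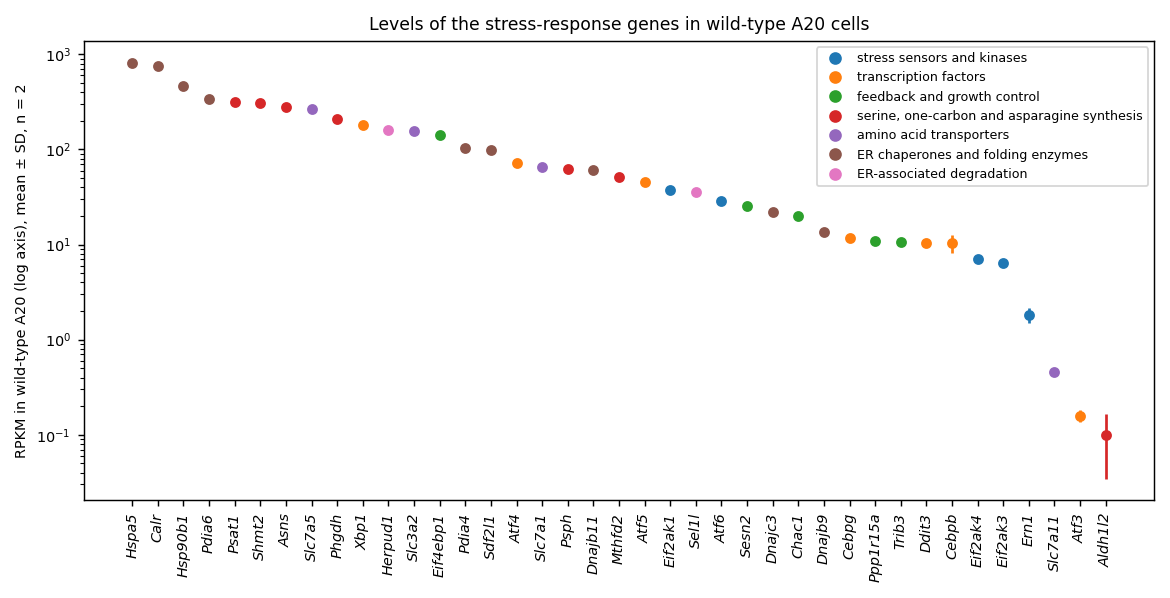
Levels of 39 stress-response genes in wild-type A20 cells in RPKM (y axis, log scale), in falling order along the x axis and coloured by role; points are means and bars SD (n = 2). The chaperone genes Hspa5, Calr and Hsp90b1 lead at 817, 752 and 467 RPKM, and Aldh1l2 is lowest at 0.1 RPKM.

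To ask how carrying TETact-v3 with a non-targeting sgRNA related to these genes, control sgRNA cells were compared with wild-type cells. At an adjusted p under 0.05 (edgeR's quasi-likelihood test, Benjamini-Hochberg over all tested genes), 15 of the 39 genes were lower and 4 were higher in control sgRNA cells. Over all tested genes, 13.5% were lower and 14.5% were higher, or 28% in either direction. Before adjustment, 25 of the 39 had a p under 0.05, against 42.6% of all genes. Both control sgRNA libraries lay below both wild-type libraries in 22 of the 39 genes and above them in 7, against 33.8% and 33.3% of all genes. The median log2 fold change was -0.31 over the 39 genes and -0.000952 over all genes. The lower genes included Atf4 and genes it is known to raise, such as Asns, Chac1 and Psat1, and also Eif2ak1, Atf6 and Xbp1. The 4 higher genes were Atf3, itself a known ATF4 target, Cebpg, Eif2ak4 and Pdia4. Ddit3, another known target, did not pass the test, nor did 8 of the 9 chaperones. For some chaperones the direction depended on which control sgRNA library was left out. The log2 fold changes of Calr and Hsp90b1 were 0.32 and 0.31 without replicate 2, and -0.20 and -0.17 without replicate 1. Hspa5 was lower in both cases (-0.28 and -0.71), and Pdia4 was higher in both (0.80 and 0.41).

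Cd4 sgRNA cells were compared with wild-type cells in the same way. Here 14 of the 39 genes were lower and 5 were higher, against 10.7% lower and 9.84% higher over all tested genes, or 20.5% in either direction. Before adjustment, 25 of the 39 had a p under 0.05, against 37.5% of all genes. Both Cd4 sgRNA libraries lay below both wild-type libraries in 22 of the 39 genes and above them in 14, against 39.3% and 40.4% of all genes. The median log2 fold change was -0.31 over the 39 genes and 0.00433 over all genes. Both comparisons use the same wild-type libraries, so their values are set side by side and are not independent. The genes lower in both were Asns, Atf4, Atf5, Atf6, Chac1, Eif2ak1, Eif4ebp1, Herpud1, Ppp1r15a, Psat1, Psph, Slc3a2 and Xbp1, 13 in all, and Pdia4 was higher in both.

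These counts depended on single libraries. In the comparison of control sgRNA with wild-type cells the number called was 1 without wild-type replicate 1 (0.91% of all tested genes), 4 without wild-type replicate 2 (3.1% of all), 31 without control sgRNA replicate 1 (64.2% of all), 29 without control sgRNA replicate 2 (59.9% of all) and 12 without either of the Cd4 sgRNA replicates (12.1% and 12% of all). For Cd4 sgRNA against wild-type cells it was 1 without wild-type replicate 1, without wild-type replicate 2 or without Cd4 sgRNA replicate 2 (0.635%, 1.45% and 1.07% of all), 3 without Cd4 sgRNA replicate 1 (1.53% of all) and 33 without either control sgRNA replicate (59.3% and 59.7% of all). The counts of members thus moved with those of all genes. Fitted on their own groups alone, the comparisons gave 12 and 34, against 12.4% and 61.8% of all genes. Atf5 was the only gene called in all 17 alternatives of both comparisons, and none of the called genes changed sign in any of them.

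**Figure D2:**
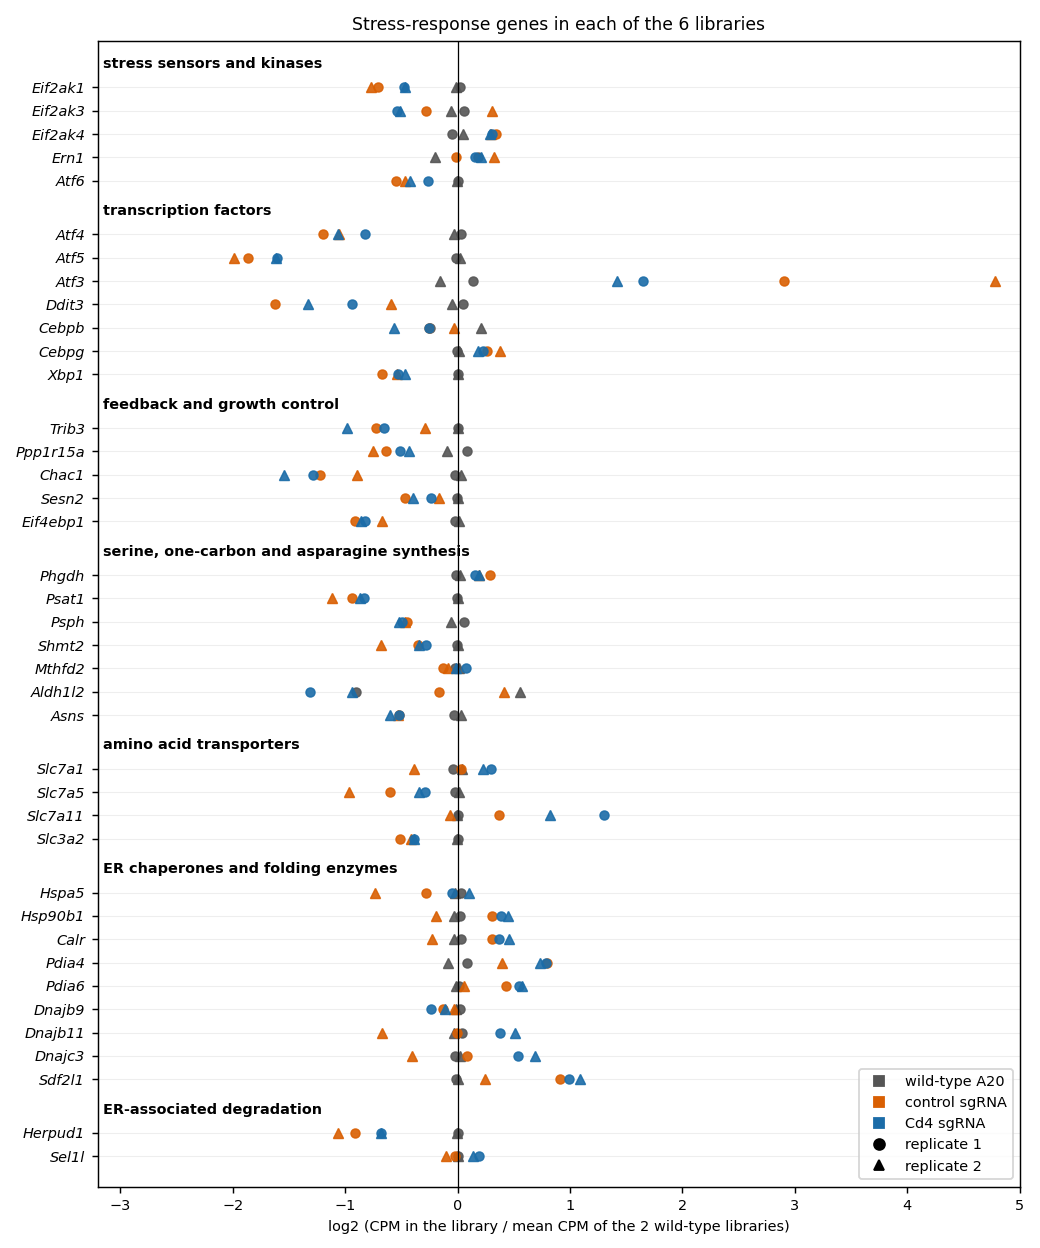
Level of each of the 39 tested genes in each of the 6 libraries, as log2 of the CPM over the mean CPM of the wild-type libraries (x axis), grouped by role (y axis). Atf4, Atf5, Chac1, Psat1 and Herpud1 lie left of 0 in all 4 TETact libraries, while Sdf2l1 and Pdia4 lie right of 0, and 8 of the 9 chaperones, all but Dnajb9, lie lower in control sgRNA replicate 2 (orange triangles) than in replicate 1.

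The sensors moved in different directions. Eif2ak1, which encodes the haem-sensing kinase HRI, had 98.5 and 96.1 CPM (counts relative to the TMM-scaled library size) in wild-type, 59.6 and 57.1 in control sgRNA and 69.9 and 70.2 in Cd4 sgRNA cells. The groups did not overlap, and the log2 fold change from wild type was -0.74 ± 0.08 (SE) in control sgRNA cells (adjusted p = 0.0028) and -0.47 ± 0.08 in Cd4 sgRNA cells (adjusted p = 0.013). Of its exon bases, 11.3% overlap Aimp2 on the opposite strand, and whether the counting used strand is not given in the sources used here. Atf6, the ER membrane sensor that is cut to a transcription factor, had 214 and 212 CPM in wild-type, 146 and 154 in control sgRNA and 177 and 159 in Cd4 sgRNA cells. All TETact libraries were below both wild-type libraries, with log2 fold changes of -0.51 ± 0.091 (adjusted p = 0.011) and -0.34 ± 0.091 (adjusted p = 0.045). Eif2ak4, for the amino acid sensor GCN2, stood at 35.9 and 38.5 CPM in wild-type, 47.2 and 45.8 in control sgRNA and 46.1 and 45.3 in Cd4 sgRNA cells. It was higher in control sgRNA cells by 0.32 ± 0.088 on the log2 scale (adjusted p = 0.039), while its log2 difference of 0.30 ± 0.089 in Cd4 sgRNA cells did not pass (adjusted p = 0.06).

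The ER kinases did not pass the test. Eif2ak3, which encodes PERK, had 29.8 and 27.4 CPM in wild-type, 23.5 and 35.4 in control sgRNA and 19.7 and 20.1 in Cd4 sgRNA cells. Its control sgRNA replicates lay on either side of the wild-type libraries, and the log2 fold change was 0.04 ± 0.2 (adjusted p = 0.91). In Cd4 sgRNA cells both libraries were below wild type, at a log2 fold change of -0.53 ± 0.2 (adjusted p = 0.12). Ern1, for the splicing sensor IRE1, ranged from 6.3 to 9.11 CPM over the 6 libraries and all groups overlapped, with log2 fold changes of 0.13 ± 0.19 and 0.15 ± 0.2 (adjusted p = 0.64 and 0.62).

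Among the transcription factors, Atf5 and Atf4 fell. Atf5, a factor controlled like ATF4 at translation, had 89.7 and 91.8 CPM in wild-type cells, 24.9 and 22.9 in control sgRNA cells and 29.8 and 29.7 in Cd4 sgRNA cells. It had the smallest p-value of the 39 genes in both comparisons, with log2 fold changes of -1.92 ± 0.09 (adjusted p = 0.00031) and -1.61 ± 0.091 (adjusted p = 0.00064). Opposite-strand genes Nup62 and Il4i1 overlap 4.11% of its exon bases. Atf4, the main effector of the pathway, had 126 and 120 CPM in wild-type, 53.8 and 59.2 in control sgRNA and 69.7 and 59.0 in Cd4 sgRNA cells. Its mRNA was thus 2.18-fold lower in control sgRNA cells (log2 fold change -1.13 ± 0.11, adjusted p = 0.0024) and 1.92-fold lower in Cd4 sgRNA cells (-0.94 ± 0.11, adjusted p = 0.0057). Xbp1, the factor downstream of IRE1 that plasma cells need, had 326 CPM in each wild-type library, 205 and 224 in control sgRNA and 226 and 236 in Cd4 sgRNA cells. It was lower in both TETact groups, by log2 fold changes of -0.60 ± 0.087 (adjusted p = 0.0062) and -0.50 ± 0.087 (adjusted p = 0.015), and gene counts do not separate its spliced from its unspliced form.

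Atf3 and Ddit3 are both known as ATF4 targets, and they differed from one another here. Atf3, a repressor induced by many stresses, had 16 and 6 counts (0.344 and 0.28 CPM) in wild-type cells, 260 and 695 counts (2.34 and 8.59 CPM) in control sgRNA cells and 32 and 37 counts (0.977 and 0.836 CPM) in Cd4 sgRNA cells. All TETact libraries were above wild type, but the level in control sgRNA replicate 2 was far above every other library. The log2 fold change in control sgRNA cells was 4.04 ± 1.0 (adjusted p = 0.031) and was 2.85 without that replicate, and in Cd4 sgRNA cells it was 1.47 ± 1.4 (adjusted p = 0.5). Ddit3, for the pro-apoptotic factor CHOP, had 9.49 and 8.87 CPM in wild-type, 2.97 and 6.09 in control sgRNA and 4.79 and 3.66 in Cd4 sgRNA cells. Every TETact library was below wild type, yet neither fold change passed the test, at -1.05 ± 0.34 (adjusted p = 0.068) and -1.14 ± 0.38 (adjusted p = 0.079) on the log2 scale. In control sgRNA cells the log2 fold change of Ddit3 was -1.64 without replicate 2 of that group and -0.58 without replicate 1. Each value rests on a single control sgRNA library, whose own spread cannot be estimated. Of its exon bases, 7.64% overlap Mars on the opposite strand. Of the C/EBP factors, Cebpg had 54.4 and 55.1 CPM in wild-type and 65.5 and 71.1 in control sgRNA cells, where it rose by 0.32 ± 0.086 on the log2 scale (adjusted p = 0.039), and Cebpb did not pass in either comparison.

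**Figure D3:**
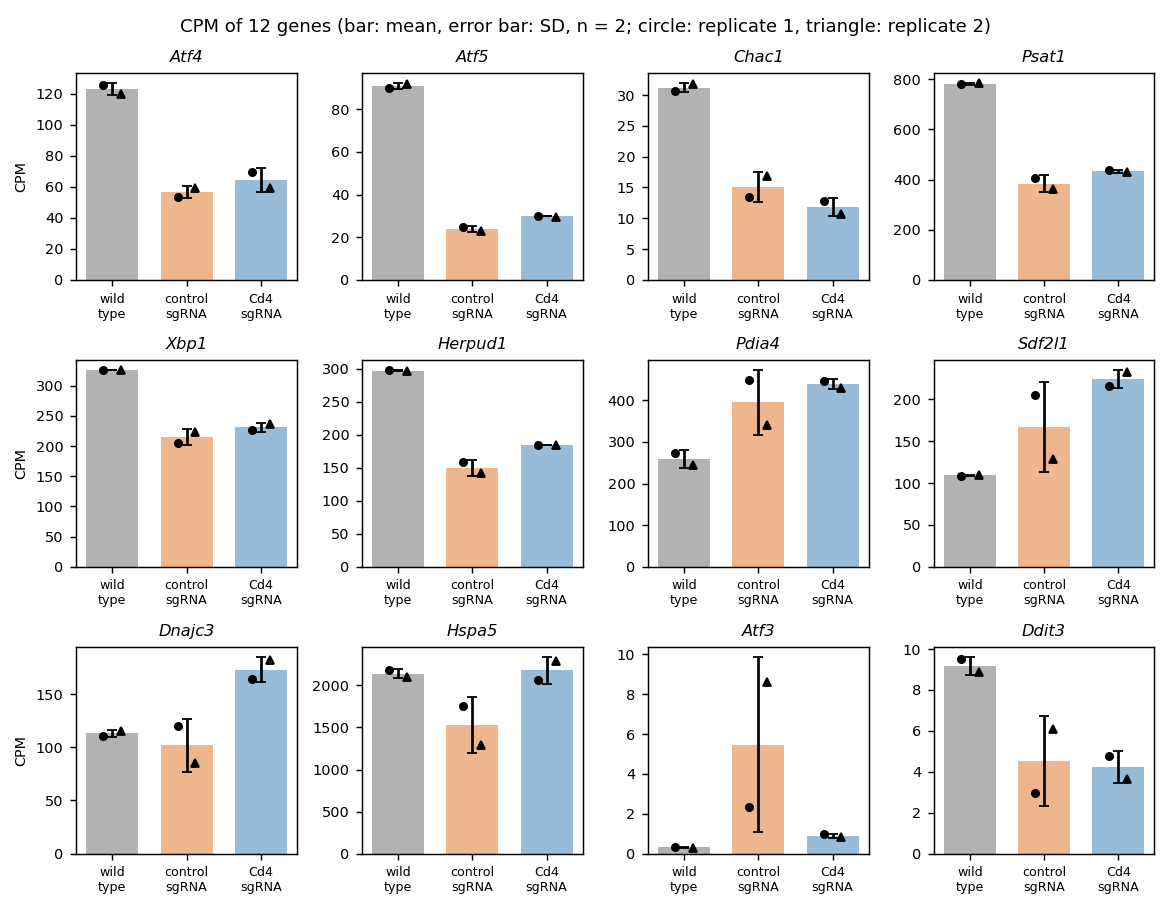
CPM of 12 stress-response genes (y axis, from 0) in wild-type, control sgRNA and Cd4 sgRNA cells; bars are means, error bars SD (n = 2), and symbols the single libraries. Atf5 falls from 89.7 and 91.8 CPM to between 22.9 and 29.8 CPM, whereas Sdf2l1 rises from 108 and 109 CPM to 216 and 232 CPM in Cd4 sgRNA cells.

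The feedback and growth control genes were all below their wild-type level in both TETact groups. The test was passed by 3 of 5 in control sgRNA and 4 of 5 in Cd4 sgRNA cells, where 13.5% and 10.7% of all tested genes were lower. Chac1, which encodes a glutathione-degrading enzyme induced through ATF4 and carries the element shown above, had 30.7 and 31.8 CPM in wild-type, 13.4 and 16.8 in control sgRNA and 12.8 and 10.7 in Cd4 sgRNA cells. This was 2.07-fold lower in control sgRNA cells (adjusted p = 0.0062) and 2.66-fold lower in Cd4 sgRNA cells (adjusted p = 0.0049). Eif4ebp1, for the translation inhibitor 4E-BP1, had 138 and 141 CPM in wild-type, 74.2 and 88.1 in control sgRNA and 79.2 and 77.3 in Cd4 sgRNA cells. Its log2 fold changes were -0.79 ± 0.1 (adjusted p = 0.005) and -0.84 ± 0.11 (adjusted p = 0.0064). Ppp1r15a, for GADD34, which directs the phosphatase that resets eIF2, had 27.0 and 23.8 CPM in wild-type, 16.3 and 15.1 in control sgRNA and 17.8 and 18.8 in Cd4 sgRNA cells. It was lower in both, by log2 fold changes of -0.70 ± 0.11 (adjusted p = 0.009) and -0.47 ± 0.12 (adjusted p = 0.037).

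Trib3, a pseudokinase that restrains ATF4, had 21.7 CPM in each wild-type library, 13.1 and 17.7 in control sgRNA and 13.8 and 11 in Cd4 sgRNA cells. It passed the test in Cd4 sgRNA cells, at a log2 fold change of -0.81 ± 0.19 (adjusted p = 0.033), and not in control sgRNA cells, at -0.50 ± 0.18 (adjusted p = 0.09). In control sgRNA cells the log2 fold change of Trib3 was -0.72 without replicate 2 and -0.27 without replicate 1. Each of these values rests on a single control sgRNA library. Sesn2, for the leucine sensor and mTORC1 inhibitor sestrin 2, did not pass in either, with adjusted p-values of 0.11 and 0.12.

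Among the genes of serine, one-carbon and asparagine synthesis, the steps did not move together. Psat1, the aminotransferase of the serine pathway, had 779 and 783 CPM in wild-type, 407 and 361 in control sgRNA and 438 and 428 in Cd4 sgRNA cells. It was 2.03-fold and 1.8-fold lower (adjusted p = 0.0019 and 0.0042). Phgdh, which catalyses the step before it, had 390 and 401 CPM in wild-type, 481 and 451 in control sgRNA and 441 and 452 in Cd4 sgRNA cells. The TETact libraries were thus above wild type, with log2 fold changes of 0.24 ± 0.083 and 0.18 ± 0.083 that did not pass (adjusted p = 0.079 and 0.18). Psph, the phosphatase that ends the pathway, had 99.6 and 92.1 CPM in wild-type, 70.2 and 69.2 in control sgRNA and 68.2 and 66.8 in Cd4 sgRNA cells. It was lower by log2 fold changes of -0.46 ± 0.083 (adjusted p = 0.012) and -0.51 ± 0.084 (adjusted p = 0.013), and 26.1% of its exon bases overlap Cct6a on the opposite strand.

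Asns, which makes asparagine, had 520 and 546 CPM in wild-type, 371 and 369 in control sgRNA and 371 and 351 in Cd4 sgRNA cells. The TETact groups were almost level with each other, at log2 fold changes from wild type of -0.53 ± 0.083 (adjusted p = 0.0083) and -0.56 ± 0.084 (adjusted p = 0.0095). The mitochondrial folate enzymes differed among themselves. Shmt2 had 703 and 708 CPM in wild-type, 552 and 439 in control sgRNA and 582 and 556 in Cd4 sgRNA cells, with an adjusted p of 0.029 in control sgRNA and 0.13 in Cd4 sgRNA cells, and the difference between the TETact groups did not pass (adjusted p = 0.33). Mthfd2 lay between 97.6 and 113 CPM in every library, and Aldh1l2 had at most 65 counts in a library. Neither passed in either comparison.

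The amino acid transporters also divided. Slc7a5 and Slc3a2 encode the subunits of the leucine transporter LAT1-CD98. Slc7a5 had 920 and 943 CPM in wild-type, 614 and 478 in control sgRNA and 763 and 736 in Cd4 sgRNA cells. It was 1.71-fold lower in control sgRNA cells (adjusted p = 0.01) and 1.24-fold lower, without passing, in Cd4 sgRNA cells (adjusted p = 0.14). Slc3a2 had 466 and 463 CPM in wild-type, 325 and 349 in control sgRNA and 355 in each of the Cd4 sgRNA libraries, and was lower in both groups (adjusted p = 0.011 and 0.025). Slc7a11, the cystine transporter, was low throughout, with 4.2 and 4.16 CPM in wild-type, 5.4 and 4.0 in control sgRNA and 10.3 and 7.39 in Cd4 sgRNA cells. It rose 2.1-fold in Cd4 sgRNA cells (adjusted p = 0.034), opposite to Chac1, Asns and Herpud1, which also hold the C/EBP-ATF letters. Slc7a1, for the arginine and lysine transporter CAT-1, did not pass in either comparison (adjusted p = 0.44 and 0.23).

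With all 6 libraries, no chaperone or folding enzyme was called lower than in wild-type cells. In control sgRNA cells 1 of 9 was higher and none was lower, where 14.5% of all tested genes were higher and 13.5% lower. In Cd4 sgRNA cells 4 of 9 were higher and none was lower, where 9.84% of all tested genes were higher and 10.7% lower. Pdia4, a disulphide isomerase, had 274 and 244 CPM in wild-type, 450 and 340 in control sgRNA and 447 and 430 in Cd4 sgRNA cells. It was higher by 0.61 ± 0.15 (adjusted p = 0.029) and 0.76 ± 0.15 (adjusted p = 0.02) on the log2 scale. Sdf2l1, a cofactor of BiP, had 108 and 109 CPM in wild-type, 205 and 129 in control sgRNA and 216 and 232 in Cd4 sgRNA cells. Both TETact groups lay above wild type, and it passed in Cd4 sgRNA cells, 2.06-fold higher (adjusted p = 0.023), but not in control sgRNA cells, where it was 1.54-fold higher (adjusted p = 0.072). Without control sgRNA replicate 2 the log2 fold changes in control sgRNA cells were 0.92 for Sdf2l1 and 0.80 for Pdia4. Without replicate 1 they were 0.27 and 0.41.

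Pdia6 and Dnajc3, both with the ER stress element shown above, also rose in Cd4 sgRNA cells. Pdia6, another disulphide isomerase, had 721 and 706 CPM in wild-type, 961 and 741 in control sgRNA and 1040 and 1060 in Cd4 sgRNA cells (1.47-fold higher in the latter, adjusted p = 0.035). Dnajc3, for the BiP co-chaperone and kinase inhibitor p58IPK, had 111 and 115 CPM in wild-type, 120 and 85.1 in control sgRNA and 164 and 182 in Cd4 sgRNA cells (1.53-fold higher in the latter, adjusted p = 0.048). For both genes control sgRNA replicate 2 was well below replicate 1. The log2 fold change of Pdia6 in control sgRNA cells was 0.43 without replicate 2 and 0.08 without replicate 1.

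Hspa5 had 2180 and 2100 CPM in wild-type, 1760 and 1290 in control sgRNA and 2070 and 2290 in Cd4 sgRNA cells. The control sgRNA libraries were below all others, but the log2 fold change of -0.49 ± 0.16 from wild type did not pass (adjusted p = 0.066). With a single control sgRNA library left in, Hspa5 stayed below wild type, by -0.28 for replicate 1 and -0.71 for replicate 2 on the log2 scale. Each value rests on a lone library, and the spread between these replicates does not enter its fit. In Cd4 sgRNA cells the difference of Hspa5 from wild type was 0.03 ± 0.16 (adjusted p = 0.91). Hsp90b1 had 1310 and 1260 CPM in wild-type, 1590 and 1130 in control sgRNA and 1690 and 1760 in Cd4 sgRNA cells. Calr had 1490 and 1430 CPM in wild-type, 1810 and 1250 in control sgRNA and 1890 and 2010 in Cd4 sgRNA cells. In both genes the control sgRNA replicates fell on either side of wild type and the Cd4 sgRNA libraries were above it, without passing the test (adjusted p = 0.12 and 0.14). Without control sgRNA replicate 2, the log2 fold changes of Hsp90b1 and Calr in control sgRNA cells were 0.31 and 0.32. Without replicate 1 they were -0.17 and -0.20, so the direction depended on which library was left in. Dnajb9 and Dnajb11, co-chaperones of BiP, did not pass in either comparison.

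The genes of ER-associated degradation went separate ways. Herpud1, which helps to assemble the degradation complex and holds the C/EBP-ATF letters shown above, had 298 and 296 CPM in wild-type, 158 and 142 in control sgRNA and 185 in each Cd4 sgRNA library. It was 1.97-fold lower in control sgRNA cells (adjusted p = 0.0019) and 1.6-fold lower in Cd4 sgRNA cells (adjusted p = 0.007). Sel1l, the adaptor of the HRD1 ubiquitin ligase, had 228 and 227 CPM in wild-type, 224 and 212 in control sgRNA and 259 and 249 in Cd4 sgRNA cells, and passed in neither comparison.

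**Figure D4:**
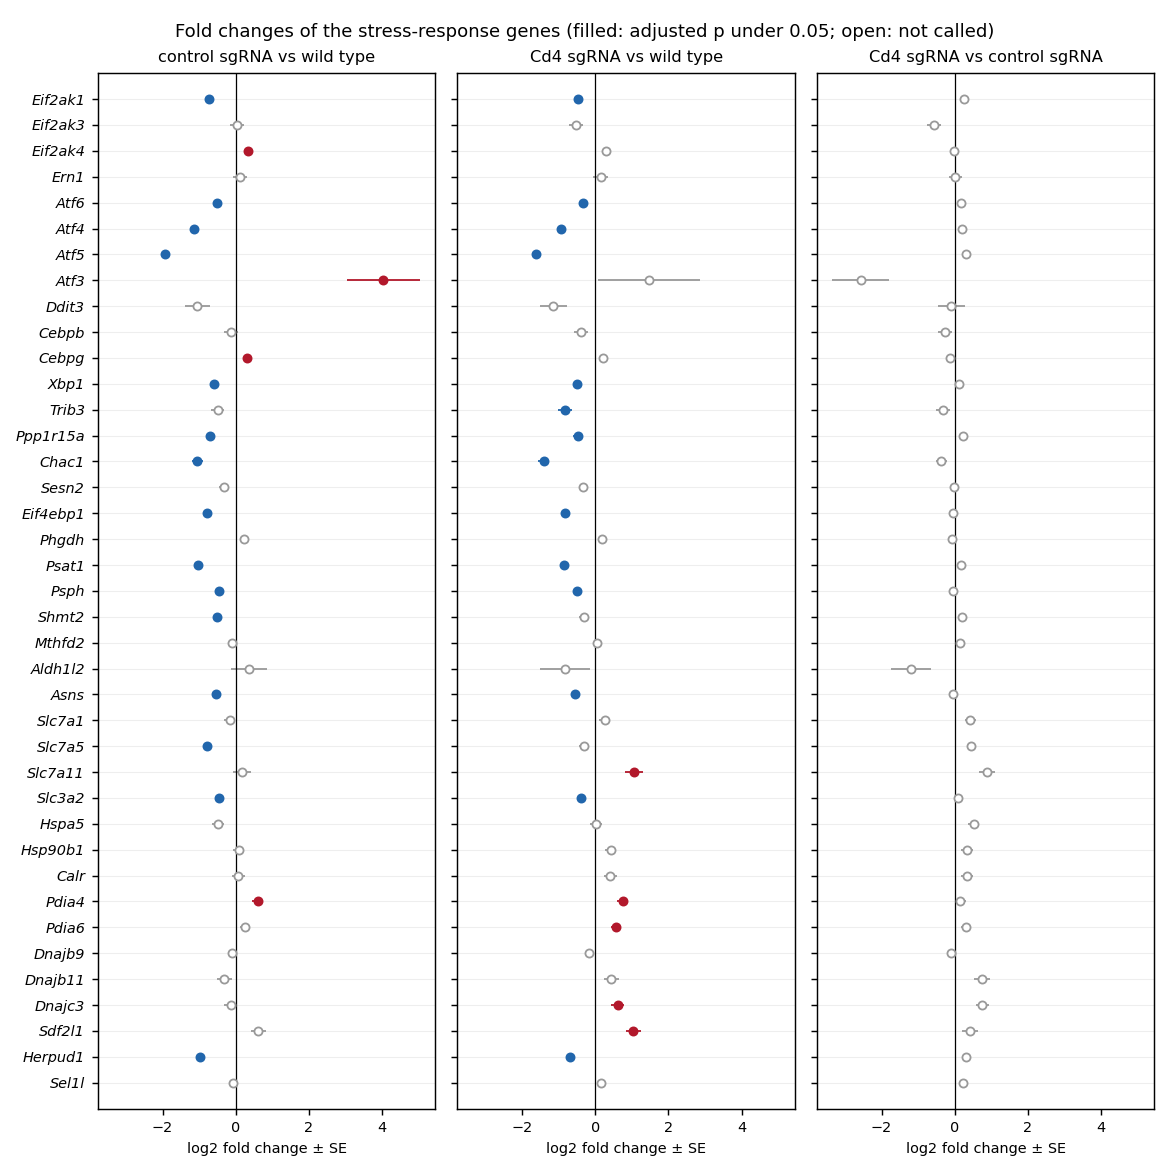
Log2 fold change ± SE (x axis, the same in each panel) of the 39 tested genes (y axis) in the 3 comparisons from edgeR's fit over all 6 libraries. Filled points are genes with an adjusted p under 0.05, blue for lower and red for higher, with 19 in each comparison with wild type and none between the TETact groups, where all points are open.

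To see whether targeting Cd4 set the TETact groups apart, Cd4 sgRNA cells were compared with control sgRNA cells. None of the 39 genes passed edgeR's quasi-likelihood test after adjustment, where 0.0241% of all tested genes were higher and 0.0483% lower (0.0724% in either direction), and voomLmFit also called 0. At an unadjusted p under 0.05 there were 12 of the 39, against 24.9% of all tested genes. DESeq2 called 7 of the 39 (17.9%), against 11.5% of all tested genes. The Cd4 sgRNA libraries lay above both control sgRNA libraries in 21 of the 39 genes and below them in 7, against 29.5% and 30.2% of all genes. The smallest p-value belonged to Dnajc3, chosen here after its values were seen, at a log2 fold change of 0.76 ± 0.17 (adjusted p = 0.12). Hspa5 was higher by 0.52 ± 0.16 (adjusted p = 0.15), Atf4 by 0.19 ± 0.11 (adjusted p = 0.32), Xbp1 by 0.11 ± 0.087 (adjusted p = 0.45), Eif2ak1 by 0.26 ± 0.08 (adjusted p = 0.15) and Atf6 by 0.17 ± 0.091 (adjusted p = 0.28), all on the log2 scale.

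Eif2ak3 had a log2 fold change of -0.56 ± 0.2 (adjusted p = 0.17) between the TETact groups, Ddit3 of -0.09 ± 0.37 (adjusted p = 0.88), Eif2ak4 of -0.03 ± 0.086 (adjusted p = 0.86) and Ern1 of 0.02 ± 0.19 (adjusted p = 0.95). Leaving out a control sgRNA library changed the count, to 26 genes without replicate 1 and to 16 without replicate 2, against 61.2% and 24.9% of all tested genes, with the remaining control library assumed to vary like the other groups. The median log2 fold change of the 39 genes was 0.121 without replicate 1 and 0.126 without replicate 2. Over all genes it was -0.00626 and -0.00146. Hspa5 was higher by 0.76 without replicate 1 and by 0.31 without replicate 2 on the log2 scale. With all 6 libraries the median log2 fold change was 0.15 over the 39 genes and -0.00807 over all genes.

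A wider list of 132 other genes of these pathways, 121 of them tested, was counted in the same way. In control sgRNA cells 30 were lower and 15 higher than in wild-type cells (37.2% in either direction, against 28% of all tested genes), and in Cd4 sgRNA cells 18 were lower and 16 higher (28.1%, against 20.5% of all). Between the TETact groups 0 passed edgeR's test, 44 had an unadjusted p under 0.05 (36.4%, against 24.9% of all) and DESeq2 called 22, where it called 11.5% of all genes. Without a wild-type library the genes called in each comparison with wild type numbered 2 to 6, without a control sgRNA library 88 to 92, and without a Cd4 sgRNA library 17 for control sgRNA and 3 or 4 for Cd4 sgRNA cells. Between the TETact groups 90 were called without control sgRNA replicate 1 and 44 without replicate 2, beside the shares of all genes given above for the same libraries. Of 13 tRNA synthetase genes, which include known ATF4 targets, 7 were lower in control sgRNA and 4 in Cd4 sgRNA cells, and none was higher, where 13.5% and 10.7% of all tested genes were lower. Cars, for the cysteine synthetase, had 252 and 259 CPM in wild-type, 127 and 143 in control sgRNA and 142 and 127 in Cd4 sgRNA cells (adjusted p = 0.0031 and 0.0046).

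The genes of this list with the smallest p-values, in either direction, were as follows. Cth, which makes cysteine from cystathionine, had 44.2 and 41.8 CPM in wild-type, 15.1 and 16.9 in control sgRNA and 16.3 and 16.8 in Cd4 sgRNA cells, at log2 fold changes of -1.43 ± 0.1 (adjusted p = 0.0012) and -1.38 ± 0.11 (adjusted p = 0.0016). The autophagy gene Map1lc3b had 69.4 and 67.1 CPM in wild-type and between 28.6 and 33.6 CPM in the TETact libraries (adjusted p = 0.0021 and 0.0026). Derl3, an ER degradation factor of secretory cells, had 15.8 and 16.1 CPM in wild-type, 48.7 and 49.3 in control sgRNA and 58.3 and 60.5 in Cd4 sgRNA cells, at log2 fold changes of 1.62 ± 0.089 (adjusted p = 0.00056) and 1.90 ± 0.09 (adjusted p = 0.00033). Creb3l2, an ER membrane transcription factor, had 0.904 and 0.934 CPM in wild-type and between 7.0 and 10.4 CPM in the TETact libraries (adjusted p = 0.0026 and 0.0041). Mbtps2, the protease that releases ATF6, was higher in control sgRNA cells (log2 fold change 0.99 ± 0.1, adjusted p = 0.0025) and in Cd4 sgRNA cells (0.81 ± 0.1, adjusted p = 0.0064). Edem1, a degradation factor for glycoproteins, was also higher in both (0.41 ± 0.088, adjusted p = 0.02, and 0.86 ± 0.088, adjusted p = 0.0035).

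Since ER genes are high in plasma cells, markers of that cell type were read beside them. The summed level of the 6 markers was 1160 and 1140 CPM in wild-type, 910 and 1330 in control sgRNA and 918 and 873 in Cd4 sgRNA cells, so control sgRNA cells lay on either side of wild type and Cd4 sgRNA cells lay below it. Jchain, the joining chain of secreted antibody, made up 75% to 86.3% of this sum in each library, and single markers moved apart. Irf4 had 33.3 and 34.5 CPM in wild-type, 93.9 and 145 in control sgRNA and 114 and 104 in Cd4 sgRNA cells, and Prdm1 had 4.05 and 3.74, 9.29 and 33.0, and 8.61 and 7.88 CPM. Sdc1, the surface marker CD138, had 16.2 and 16.7 CPM in wild-type, 28 and 26.5 in control sgRNA and 30.7 and 31.8 in Cd4 sgRNA cells (log2 fold changes of 0.73, adjusted p = 0.0049, and 0.93, adjusted p = 0.0039). All TETact libraries were thus above wild type for Irf4, Prdm1 and Sdc1. Irf4 passed the test in both groups (adjusted p = 0.0036 and 0.0063). Prdm1 passed in control sgRNA cells (adjusted p = 0.036) and not in Cd4 sgRNA cells (adjusted p = 0.3). Jchain had 997 and 976 CPM in wild-type, 705 and 1050 in control sgRNA and 692 and 654 in Cd4 sgRNA cells. It did not pass in either comparison (adjusted p = 0.51 and 0.08). Slamf7 had 105 and 108, 73.4 and 78, and 72.5 and 74.6 CPM. It was called lower in both TETact groups (log2 fold changes of -0.50, adjusted p = 0.0091, and -0.54, adjusted p = 0.01). The defining marker Tnfrsf17 was at or under 3 counts in every library. Their part in the ER results was not tested. In bulk RNA, fewer cells of a type and less RNA per cell cannot be told apart.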

How the data were processed

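Read pairs were mapped by the authors to mm10 (Rsubread), and the deposited values are the raw featureCounts counts for each Entrez gene, not normalised. Strand use in counting is not given in the sources used here. The deposited table of the whole series repeats these counts and was not used.

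Symbols came from RefSeq genes of GRCm38.p6. Genes without a symbol or with a duplicated one, mitochondrial and rRNA genes and those of type "other" were removed, leaving 25227 of 27179, and filterByExpr with default settings left 12430. Libraries were scaled by TMM. CPM and RPKM were computed from the counts, scaled library sizes and exon lengths. edgeR 4.0.16 (glmQLFit with robust estimation, glmQLFTest) was fitted to all 6 libraries in R 4.3.3, two-sided, with Benjamini-Hochberg adjustment over all tested genes and a threshold of 0.05. The SE was the ratio of the log2 fold change to the root of its F statistic. With 2 libraries a group, an exact permutation test cannot go below p = 0.333. Depth ran from 23194920 to 121623410 counts, so that 3 counts, taken as the floor, were worth 0.027 to 0.14 CPM; this covers counting error only. P-values rest on the spread between the 2 samples of a group, pooled over all 3 groups in the fit. Those for Cd4 sgRNA against wild-type cells thus also carry the spread of the control sgRNA replicates.

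The members, the wider list and the markers were chosen with earlier results of these data known. All members were accounted for; statistics were given for the 12 called members with the smallest p-values per comparison, for Atf4, Ddit3, Xbp1, Hspa5, Eif2ak1, Eif2ak3, Eif2ak4, Ern1 and Atf6, and for the 3 called genes of the wider list with the smallest p-values in each direction. Others were named after their values were seen, to account for each role. Replicate numbers did not pair the samples. Alternatives were RLE factors, library size only, other filters, voomLmFit (limma 3.58.1; edgeR 4.0.16), DESeq2 1.42.0, the older quasi-likelihood method, single pairs of groups, a replicate block, thinned counts and each library left out. The tests were tested on simulated counts. Promoter windows came from RefSeq and exon overlaps from GENCODE vM21.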

Additional observations from a re-analysis of the deposited data

Results flagged for a closer look

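Sel1l was picked out because its libraries moved in opposite directions from wild type in the TETact groups. Both control sgRNA libraries (224 and 212 CPM) were below and both Cd4 sgRNA libraries (259 and 249 CPM) were above the wild-type libraries (228 and 227 CPM). Such a separation from wild type was seen in 33.8% of all genes for lower control sgRNA and 40.4% for higher Cd4 sgRNA libraries. Neither difference from wild type passed, at log2 fold changes of -0.06 ± 0.082 (adjusted p = 0.6) and 0.16 ± 0.082 (adjusted p = 0.21). The log2 fold change between Cd4 sgRNA and control sgRNA cells was 0.221 ± 0.082 and did not pass edgeR's quasi-likelihood test (adjusted p = 0.18).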

How the results depend on the processing

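Scaling, filters on genes, voomLmFit, the older quasi-likelihood method and thinned counts left the number of called members within 1.5 times in each comparison. With the replicate block, 17 members were called in control sgRNA and 15 in Cd4 sgRNA against wild-type cells and 0 between the TETact groups. Of all 12430 genes, 2970, 2037 and 7 were called in the same comparisons. Replicate differences correlated at -0.0322, 0.0201 and -0.137 between groups, so the numbers share no pairing. Fitting only the groups compared gave, for members, the wider list and all genes, 12, 18 and 1569 calls in control sgRNA and 34, 92 and 7451 in Cd4 sgRNA against wild-type cells, and 1 gene in all between the TETact groups. Between those, DESeq2 called 7 members, 22 of the wider list and 1427 genes; without an expression filter 18 genes and after thinning 14 genes were called. The cause was not tested.

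Leaving out each library in turn gave 1 to 31 members, 2 to 89 of the wider list and 116 to 8217 genes for control sgRNA against wild-type cells. For Cd4 sgRNA against wild-type cells it gave 1 to 33 members, 2 to 92 of the wider list and 81 to 7588 genes. Between the TETact groups it gave 0 to 26 members, 0 to 90 of the wider list and 1 to 7835 genes. A lone library was assumed to vary like the other groups.

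No called member reversed. Among uncalled members for which statistics were given by rule, log2 fold changes of control sgRNA against wild-type cells reversed for Eif2ak3 (-0.00826 with voomLmFit; -0.291 to 0.32 leaving out a library, negative without control sgRNA replicate 2) and Ern1 (-0.0642 to 0.39, negative without the same library). Hspa5 reversed in Cd4 sgRNA against wild-type cells (-0.0489 to 0.103, negative without Cd4 sgRNA replicate 2). Between the TETact groups Eif2ak4 reversed (-0.0482 to 0.00137, positive without control sgRNA replicate 1), as did Ern1 (-0.0999 thinned; -0.138 without control sgRNA replicate 1 to 0.199, and -0.00826 without Cd4 sgRNA replicate 2) and Ddit3 (0.0143 with voomLmFit; -0.545 to 0.484 without control sgRNA replicate 2, and 0.102 without Cd4 sgRNA replicate 2). Of the remaining uncalled members, the sign turned in at least 1 alternative for Aldh1l2, Calr, Cebpb, Dnajc3, Hsp90b1, Slc7a1 and Slc7a11 in control sgRNA and Mthfd2 in Cd4 sgRNA against wild-type cells, and for Asns, Eif4ebp1, Pdia4 and Sesn2 between the TETact groups. Depth limits Atf3, Aldh1l2 and Nupr1, which had few counts.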
